A study of Mus musculus with 36 samples.

Results

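The 8 genes described here encode transcription factors that establish or hold hepatocyte identity: the nuclear receptors Hnf4a and Hnf4g, the forkhead factors Foxa1, Foxa2 and Foxa3, the bZIP factors Cebpa and Cebpb, and the cut-homeodomain factor Onecut1. They were chosen by symbol. Every region of the deposited H3K9me3 tables that the annotation assigned to 1 of these symbols was taken, which gave 484 of 786789 rows over 6 tables, and all 8 genes had at least 1 row in every table. The study profiled H3K9me3 by ChIP-seq in the liver of offspring of control dams on chow or of obese dams on a Western-style diet, and asked whether maternal obesity (MO) leaves a mark on this histone modification. All offspring were C57BL/6J mice with 1 or 2 floxed Reg3g alleles (fl/+ or fl/fl), used as the control littermates of that line. How the 2 genotypes fell over the groups is not given in the sources used here. The dams' diet was given before mating and through pregnancy and lactation. Livers were taken at 3 weeks, or at 8 weeks after offspring of both kinds of dam had been on chow since weaning. The groups were control females (CF), MO females (MF), control males (CM) and MO males (MM) at each age, with 4 ChIP libraries in each of the 8 groups, and 4 input libraries that were not analysed here. Whole liver was used, so the signal comes from all its cell types together, and a region marked in few cells cannot be told apart from one marked weakly in many. The tables hold no expression values, so the tissue could not be checked against its marker genes.

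Hepatocyte identity rests on a small network of factors that bind each other's promoters and many liver genes at once. FOXA proteins are pioneer factors that open compacted chromatin in the endoderm before liver genes are switched on, HNF4A keeps the mature hepatocyte programme running, C/EBP alpha and C/EBP beta drive metabolic and acute-phase genes, and ONECUT1 (HNF6) acts in liver and bile duct development. H3K9me3 is a mark of heterochromatin that is deposited over repeats and over genes of other lineages, and its loss at liver genes accompanies hepatocyte differentiation.

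Sequence from promoter rows of 7 of the genes is shown first, so that the CpG content described below can be seen. Each line gives the middle 150 bases of the promoter row with the highest deposited level for the gene named (for Hnf4g shifted slightly to stay upstream of the transcribed region), read from the plus strand of GRCm38, with CG dinucleotides in capitals. Promoter here means within 3 kb of any annotated start site of the gene. The level was compared over 6 tables that were each scaled on their own, so these rows are not always the highest by their place within a table: a row at percentile 79.3 for Cebpb, 340 bp upstream of the start with 17 CG in the bin, stood above the one shown, at percentile 63.1 with 87 CG in the bin. For Foxa2, the peak 1650 bp upstream reached percentile 90.4, above 88.6 for the row shown. The Hnf4a row shown was at percentile 26.1, where the row over the upstream start reached 62.2 in the male age table. The Hnf4g row shown was at 46.3, and the same bin reached 74.2 in the 3-week female table. The Foxa1 row shown was at 77.4, where a start row reached 94.8 in the male age table.
Hnf4a, chr2:163552629-163552778, in the gene, with 26 coding bases followed by intron, 4 CG: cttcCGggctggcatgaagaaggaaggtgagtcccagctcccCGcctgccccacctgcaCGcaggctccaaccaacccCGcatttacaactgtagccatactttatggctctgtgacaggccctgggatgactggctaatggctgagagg
Hnf4g, chr3:3507880-3508029, just upstream of the gene, 8 CG: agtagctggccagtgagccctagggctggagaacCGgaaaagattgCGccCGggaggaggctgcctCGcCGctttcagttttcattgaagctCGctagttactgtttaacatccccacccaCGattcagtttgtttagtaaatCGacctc
Foxa1, chr12:57545502-57545651, intron, 16 CG: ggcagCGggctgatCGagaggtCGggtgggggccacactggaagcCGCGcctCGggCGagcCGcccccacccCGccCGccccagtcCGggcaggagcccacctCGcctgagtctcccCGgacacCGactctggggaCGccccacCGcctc
Foxa2, chr2:148043747-148043896, coding exon, 6 CG: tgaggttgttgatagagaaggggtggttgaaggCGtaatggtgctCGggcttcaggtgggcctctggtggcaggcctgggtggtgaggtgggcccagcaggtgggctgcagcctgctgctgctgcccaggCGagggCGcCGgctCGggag
Cebpa, chr7:35120082-35120231, coding exon, 22 CG: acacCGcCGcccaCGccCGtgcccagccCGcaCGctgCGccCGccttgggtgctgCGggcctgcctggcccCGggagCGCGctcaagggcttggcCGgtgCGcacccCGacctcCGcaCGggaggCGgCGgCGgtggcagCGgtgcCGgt
Cebpb, chr2:167689250-167689399, coding exon, 29 CG: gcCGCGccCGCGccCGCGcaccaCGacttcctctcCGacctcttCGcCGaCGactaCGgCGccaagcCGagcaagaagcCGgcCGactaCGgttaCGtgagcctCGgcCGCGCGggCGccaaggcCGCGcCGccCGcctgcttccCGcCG
Onecut1, chr9:74863677-74863826, intron, 8 CG: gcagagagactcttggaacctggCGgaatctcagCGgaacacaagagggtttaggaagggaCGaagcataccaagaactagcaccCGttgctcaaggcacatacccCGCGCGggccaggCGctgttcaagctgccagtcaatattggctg
The last sequence is from the row with the highest deposited level of any of the 8 genes (percentile 99.2, where the highest percentile of any row was 99.7, also for Hnf4g). It lies between genes 229573 bp from the nearest annotated Hnf4g start site, and its bin is 90.5% soft-masked, that is, marked in the reference as repeat.
Hnf4g, distal, chr3:3863889-3864038, 5 CG: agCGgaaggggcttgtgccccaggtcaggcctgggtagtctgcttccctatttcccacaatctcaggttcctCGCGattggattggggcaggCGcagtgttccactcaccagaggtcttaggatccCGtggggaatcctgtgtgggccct
The Cebpb and Cebpa stretches lie inside the single coding exon of an intronless gene.

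Each table set 2 groups side by side: MF with CF at 3 weeks, MF with CF at 8 weeks, CF at 3 weeks with CF at 8 weeks, and the same for males. The level used is the authors' average log2 CPM (reads in the row scaled to library size) of a row over the 8 libraries of its table. It does not separate the 2 groups, so no value per sample, SD or test between groups is given, and all that follows is description. The tables held 102145 to 159357 rows, of which the 8 genes took 62 to 99, or 0.0602% to 0.0638%. The median level over all rows ran from 2.03 in the 3-week male table to 2.74 in the 8-week male table, and because each table was scaled on its own, and tables of 1 sex share libraries, a row is placed by its percentile among all rows of the same table. A row is a bin of at most 501 bp, and each table kept exactly 1 bin of each peak it lists. The kept bin differed between tables for 39.5% of the long female peaks and 44.2% of the long male peaks that several tables list, and for 19 of 45 and 27 of 52 such peaks of the 8 genes. Part of any difference between tables at a named peak can therefore be a difference between bins.

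H3K9me3 peaks lay on or beside the start site of all 8 genes. The annotated 5′ start fell inside a peak for 6 of 8 genes in females and 7 of 8 in males, against 48.1% and 49.2% of all 21911 protein-coding genes. The female exceptions were Hnf4a, with a peak 56 bp downstream of the start, and Foxa2, with a peak 223 bp downstream. The male exception was Hnf4g, with a peak 146 bp downstream. The gene body was touched by a peak for 8 of 8 genes in both sexes, where 79.5% of protein-coding genes were touched in females and 78.5% in males. The peaks covered all of Cebpb in both sexes, 100% of Cebpa in females and 76.0% in males, 75.7% and 83.0% of Foxa2, 57.6% and 66.3% of Foxa3, and 49.2% and 54.3% of Foxa1. The median over all protein-coding genes was 8.90% in females and 9.37% in males. Of the 3 long genes, Hnf4a was above it (10.4% and 25.6%), Onecut1 near it (8.23% and 12.4%) and Hnf4g below it (0.541% and 0.515%). Among the 5 of these genes that are at most 15 kb long, 4 in females and 5 in males had more than 50% of the gene inside peaks, where 31.6% and 31.7% of the 10066 protein-coding genes of that length did.

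**Figure D1:**
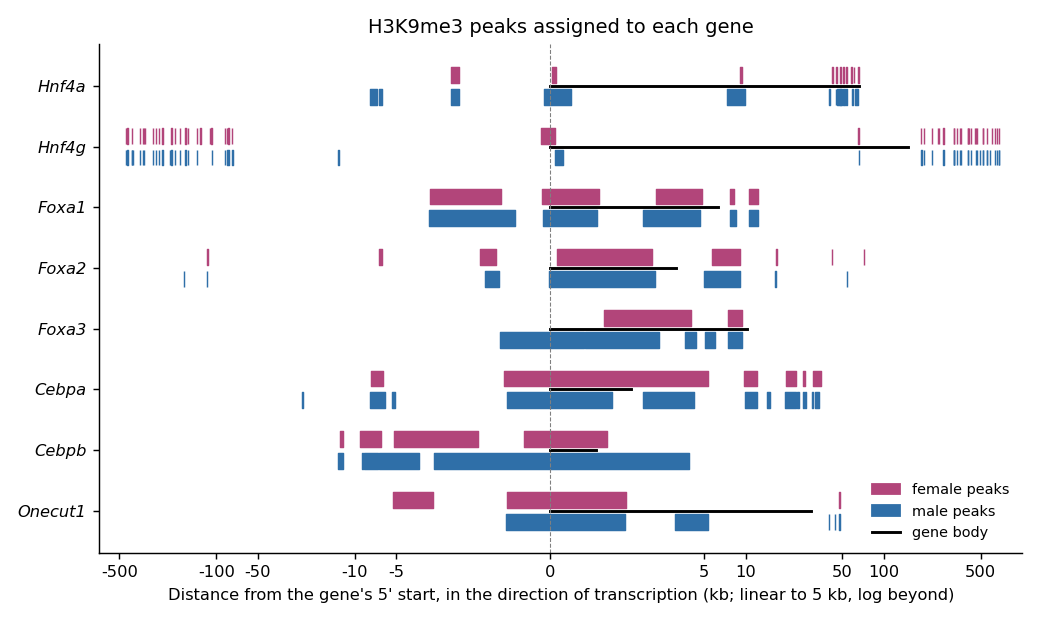
Each bar is an H3K9me3 peak assigned to the gene on the left (female peaks above the black gene body, male peaks below), placed by distance from the 5′ start in kb in the direction of transcription, linear to 5 kb and logarithmic beyond. Foxa1, Foxa2, Cebpa, Cebpb and Onecut1 carry wide peaks at or beside the start in both sexes, while nearly all Hnf4g peaks lie far from the gene.

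**Figure D2:**
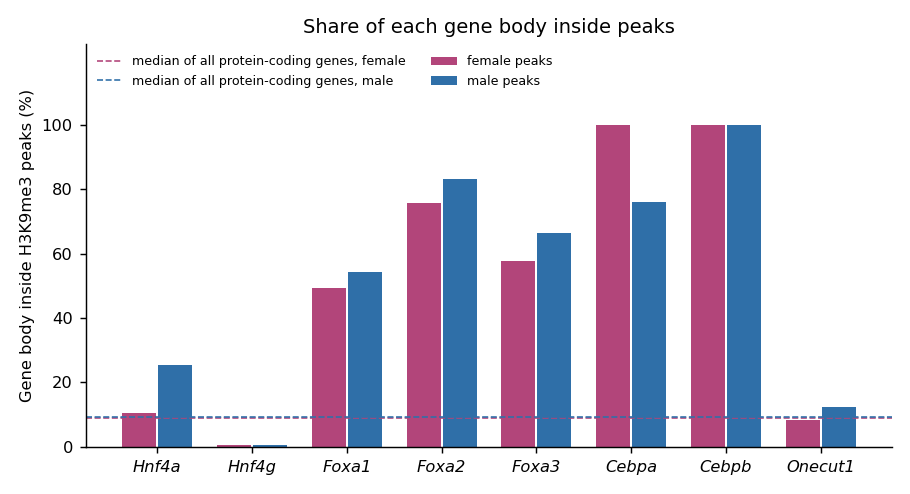
Bars give the percent of each gene body inside H3K9me3 peaks for the female and the male peak sets, and the dashed lines give the median of all protein-coding genes. Cebpa, Cebpb and the 3 Foxa genes stand at 49.2% or more, Hnf4g at 0.541% and 0.515%.

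The 8 genes sit in unlike surroundings. Cebpb lay in the most densely marked one: 179 female and 203 male peaks covered 53.0% and 57.8% of the 500 kb to each side of its start. Hnf4a (31.2% and 32.4%), Foxa3 (37.4% and 37.5%) and Cebpa (36.5% and 35.8%) also lay in dense neighbourhoods, each with 150 or more peaks and 16 to 44 protein-coding starts. Over the whole genome peaks covered 8.34% in females and 8.51% in males, at 59.0 and 64.1 peaks per Mb. Onecut1 was below that average with 51 and 59 peaks covering 6.01% and 6.50%. Foxa1 and Foxa2 lay in sparse neighbourhoods, with 19 and 22 female and 24 and 25 male peaks that covered 1.48% to 2.19%. Of the 19 female peaks around Foxa1, 5 lay on the gene or within 12310 bp of its start. Hnf4g also lay in a sparse and gene-poor neighbourhood, where its own start was the only protein-coding one and peaks covered 3.25% and 3.67%.

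Foxa1 encodes a pioneer factor that shares much of its function in liver with Foxa2. It was the most uniform of the 8 genes in where its peaks were listed, though not in their levels. The same 5 places carried a peak in both sexes, and each of them was listed in all 3 tables of each sex. The peak over the start ran over 1843 bp in females and 1772 bp in males, with 63.7% GC in both. The bin just downstream of the start that the tables' annotation used (294 bp in females, 243 bp in males) had a level of 2.89 in the female age table, 2.82 in the 3-week female table and 2.75 in the male age table, at percentiles 77.4, 91.3 and 94.8. The bins over and upstream of the start that the other tables kept had percentiles of 9.68 (8-week females), 55.5 (3-week males) and 22.8 (8-week males). The level within this 1 peak was thus high in the 3 tables that kept the downstream bin and lower in those that kept another. A short female peak of 484 bp past the 3′ end of the gene reached 3.52 in the age table, 3.20 at 3 weeks and 3.21 at 8 weeks, at percentiles 98.3, 99.2 and 91.7, and was the highest Foxa1 row in each female table. It has 63.8% GC, no soft-masked base and 45 CG in 484 bp. The male peak at this place was 811 bp long and stood at percentiles of 30.4 to 75.9. Inside the gene, a peak of 1503 bp in females and 1874 bp in males had percentiles of 64.1 to 89.1 and 84.3 to 95.7. Over all full-length bins, which can be compared without regard to length, the median percentile of Foxa1 was 78.1 in females (12 bins) and 79.9 in males (14 bins).

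Foxa2, the other pioneer factor of the early endoderm and a regulator of bile acid and lipid genes in the adult, had 8 female and 7 male peaks. Its peak over the gene was 3099 bp long in females and 3450 bp in males, with 62.7% and 62.3% GC. The 3 female tables kept bins at percentiles 19.4 to 30.4. The bins within this peak were annotated to starts inside the gene, downstream of its 5′ start. In males the bin over 1 such inner start, kept by the 3-week table, had a level of 1.62 and a percentile of 2.40, whereas the bin 1392 bp downstream of that start, kept by the age and 8-week tables, had levels of 2.39 and 3.23 and percentiles of 79.1 and 88.6. A short Foxa2 peak upstream, 1650 bp from the gene's 5′ start in males and 1773 bp in females, held a single kept bin per sex. Its levels were 3.09, 2.63 and 2.95 in the female age, 3-week and 8-week tables and 2.60, 2.21 and 3.20 in the male ones. The percentiles ran from 72.2 to 90.4, so this place was in the upper part of all 6 tables. It meets the criteria used for a CpG island (over 50% GC, CpG observed over expected above 0.6, at least 200 bp) in both sexes. The other Foxa2 peaks lay 5007 to 169909 bp away and none exceeded the 67.3 percentile.

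Foxa3, which acts with its relatives on glucose and metabolic genes, had the lowest median percentile of the 3 Foxa genes among full-length bins, at 38.3 in females (3 bins) and 22.5 in males (6 bins). It had 2 female and 5 male peaks, and 14 rows in all. The percentile exceeded 50 in 1 of them, the 3-week male row towards the 3′ end of the gene at 58.9. The peaks were richer in repeats than those of the other Foxa genes, with a median of 33.4% soft-masked bases in females and 27.5% in males. The peak over the Foxa3 start is mostly absent from these counts because the annotation gave it to the neighbouring Sympk, whose start lies on the other side. This 2567-bp female peak had levels of 2.88 to 3.17 and percentiles of 84.8 to 93.9, above every row assigned to Foxa3 itself. The male peak there, 2715 bp long, was assigned to Foxa3 in 1 table at a level of 1.81 (percentile 13.5) and reached percentile 66.5 among those assigned to Sympk.

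Cebpa, which drives glucose, lipid and urea-cycle genes and holds hepatocytes out of the cell cycle, had the broadest female peak of the 8 genes. It ran from 1509 bp upstream of the start to 5377 bp downstream, 6887 bp in all, over the whole of this intronless gene. In males a peak of 3390 bp covered the start and most of the gene, and a separate peak of 1664 bp followed it. The promoter row stood in the upper part of every table, with levels of 3.04, 2.56 and 2.83 in the female age, 3-week and 8-week tables (percentiles 87.4, 71.3 and 70.8) and 2.25, 2.40 and 3.21 in the male ones (percentiles 67.0, 87.6 and 87.8). These rows came from 5 different bins between 1019 bp upstream and 1104 bp downstream, and the 6 levels were all above the median of their table. Its male start peak had 65.3% GC, a CpG observed over expected of 0.780 and 282 CG. A further 5 female and 12 male peaks lay up to 31.9 kb away, with percentiles from 0.772 to 88.2.

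Cebpb, the inducible relative that takes part in the acute-phase response and in regeneration, had the peak with the highest CpG content at a start site. Its female start peak of 2679 bp had 66.2% GC and a CpG observed over expected of 0.962. The levels there were 2.75 in the age table, 2.64 at 3 weeks and 2.55 at 8 weeks, at percentiles 63.1, 79.3 and 38.9. In males the peak over Cebpb ran over 8280 bp, the longest peak of the 8 genes in either sex. It was assigned to Cebpb only in the age table, where its level of 1.94 was at percentile 29.1, and to the overlapping neighbour Peds1 in the other 2, so that the highest percentile of any bin kept from it was 57.1. Among 7 male Cebpb rows none was above the 31.8 percentile, whereas 4 of 10 female rows were above the median of their table.

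Onecut1 carried a peak of 3861 bp in females and 3848 bp in males over its start, with 60.5% and 60.4% GC. Female levels were 2.42, 2.33 and 2.58 in the age, 3-week and 8-week tables, at percentiles of 15.4 to 42.8. In males the bin 1581 bp downstream, kept by the age and 8-week tables, had levels of 2.66 and 3.32 and percentiles of 92.5 and 91.6. The 3-week male table kept the bin 1081 bp downstream, at a level of 1.82 and a percentile of 19.8. A second male promoter peak of 1259 bp, with its bin 9 bp from another annotated start, stood at percentiles of 16.3 (age) and 4.00 (3 weeks). The female 8-week table kept a nearly coincident bin 1596 bp downstream, which gave the highest of the female percentiles. A distal place 47.3 kb (males) and 47.5 kb (females) from the annotated 5′ start, beyond the 3′ end of the gene, was listed in all 6 tables, at percentiles of 78.0 to 97.2 in males and 48.4 to 83.5 in females.

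Hnf4a, the central nuclear receptor of the network, had 11 female and 14 male peaks, of which 10 and 11 lay within the gene of 66103 bp. Peaks were found at both groups of start sites. At the upstream start a male peak of 869 bp reached levels of 2.21 in the age table and 1.99 at 3 weeks (percentiles 62.2 and 43.7), and a female peak of 141 bp had levels of 2.34 and 2.43 (percentiles 6.38 and 23.0). The female bin was shorter than a full bin and these levels are not scaled for length, so the sexes cannot be compared at this start. At an inner start, a male peak of 772 bp, whose near edge lay 40.0 kb downstream of the 5′ start, stood at percentiles 13.9 (3 weeks) and 0.239 (8 weeks). No female peak overlapped it, but a female peak of 1157 bp lay between it and the next annotated start, with its bin 791 bp upstream of that start at percentile 27.5 in the 3-week table. The highest row of each table lay elsewhere, in introns of Hnf4a in 5 tables and 6361 bp upstream in the male age table, with percentiles of 62.3 to 78.5. Hnf4a peaks had a median GC of 53.5% in females and 53.4% in males, and none met the CpG-island criteria in either sex. The median percentile of the full-length bins was 48.7 in females (10 bins) and 38.3 in males (19 bins).

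**Figure D3:**
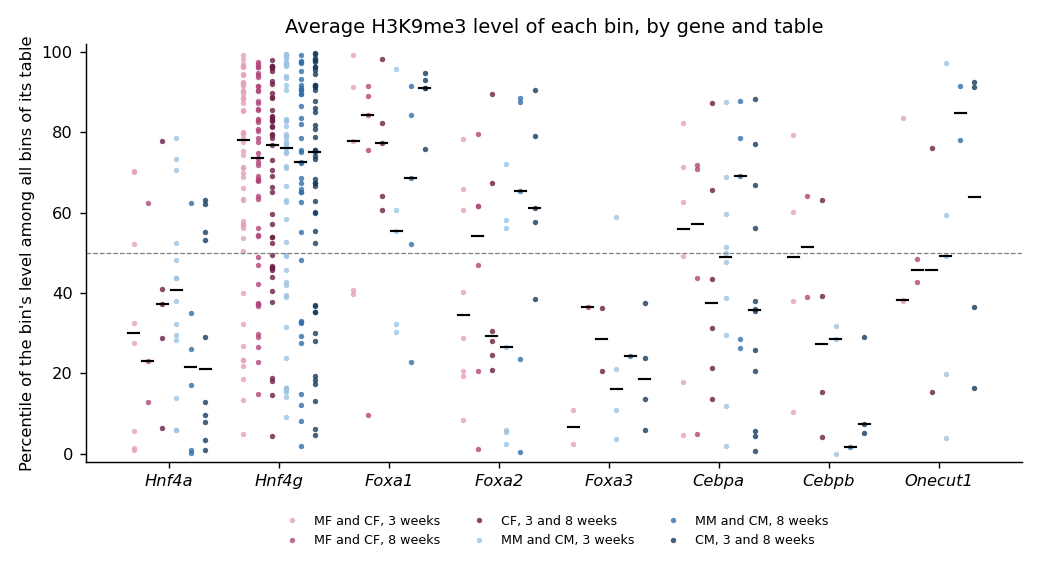
Each dot is a bin, placed by the percentile of its average log2 CPM among all bins of its table (dashed line: 50), with 1 column per table for each gene and black bars at the medians. Hnf4g medians lie at 72.5 to 78.1 in the 6 tables and Foxa3 medians at or below 36.5.

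Hnf4g, the paralogue of Hnf4a that is best known from intestine, kidney and pancreas, stood apart from the other 7 genes in the number, position and repeat content of its peaks. It took 279 of the 484 rows. In the female age table it had 47 rows, where the median gene had 3 and 90 of 20533 genes had more. Only 1 row per table lay within 3 kb of its start, and 264 of the 279 rows lay between genes, from 451 kb upstream to 675 kb downstream of the 5′ start. The annotation gave each peak to the nearest gene. Within 500 kb of the Hnf4g start, all 46 female and all 42 male peaks were assigned to Hnf4g, at 46.0 and 42.0 peaks per Mb against 59.0 and 64.1 in the genome. The many rows of Hnf4g thus went with a peak density below that of the genome.

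The Hnf4g peaks were shorter and lay in repeats. Their median length was 468 bp in females and 491 bp in males, against 781 and 745 bp for all peaks and 1302 and 923.5 bp for the other 7 genes. The median share of soft-masked bases was 71.5% in females and 70.5% in males. For all peaks it was 16.6% and 15.9%, and for the other 7 genes 9.91% and 11.1%. More than 50% of the sequence was masked in 40 of 53 female and 40 of 51 male Hnf4g peaks, in 0 of 39 and 4 of 54 peaks of the other genes, and in 20.7% and 19.3% of all peaks. The 1 Mb around Hnf4g was itself 57.5% masked, where the genome was 36.4% masked and the other 7 neighbourhoods 24.8% to 36.4%.

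**Figure D4:**
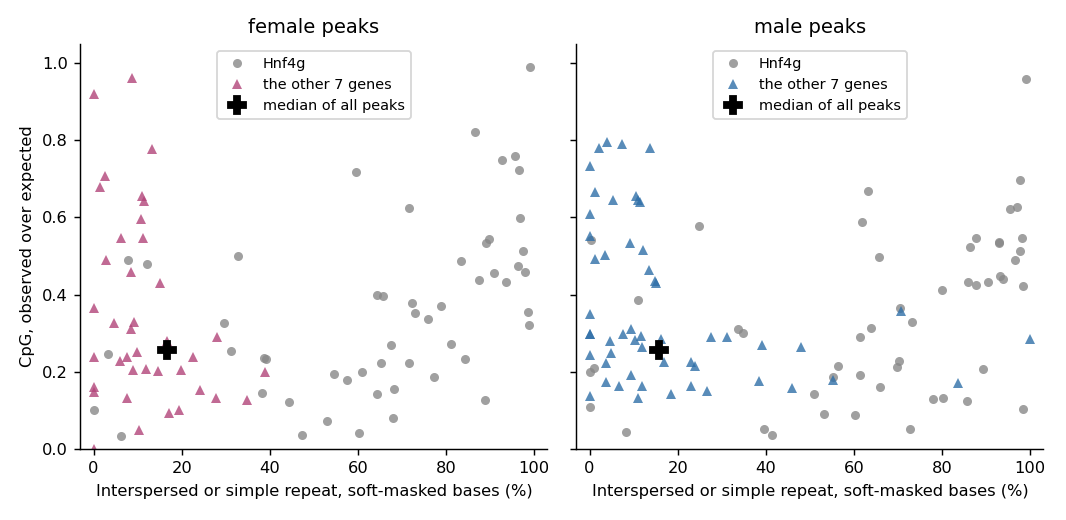
Each symbol is a peak, with its soft-masked share (percent of bases) on the horizontal axis and its CpG observed over expected on the vertical axis, for female and male peaks. Most Hnf4g peaks (circles) lie beyond 50% masked, while the CpG-rich peaks of the other 7 genes (triangles) lie below 20%.

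Hnf4g rows also stood higher in their tables than the pooled rows of the other 7 genes, though Foxa1 alone had medians close to or above those of Hnf4g over the tables of each sex. Their median level was 2.88, 2.63 and 2.87 in the female age, 3-week and 8-week tables and 2.34, 2.25 and 2.95 in the male ones, which is the 72.5 to 78.1 percentile. The rows of the other 7 genes had medians of 2.57, 2.34, 2.62, 2.00, 1.95 and 2.76 in the same order, at percentiles of 37.4 to 52.3. In the upper 10% of its table stood 9 to 15 Hnf4g rows and 1 to 7 rows of the other genes. The order held for full-length bins, where Hnf4g had median percentiles of 71.6 to 86.4 and the other 7 genes 39.2 to 64.4 over the 6 tables. These rows come from different numbers of genes (1 against 7) and neighbouring rows of 1 gene are not replicates, so no test was made.

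Several Hnf4g places were high in both sexes. The bin printed above had levels of 4.03, 3.39 and 2.98 in the male 8-week, age and 3-week tables, all at or above the 99.2 percentile, and the overlapping female peak of 418 bp had percentiles of 94.6 to 96.3. A peak 518 kb downstream (451 bp in males, 438 bp in females) stood at percentiles of 97.6 to 98.7 and 94.3 to 97.1. A peak about 86.3 kb upstream stood at 97.1 to 97.8 and 96.1 to 97.5. These 3 places were 87.6% to 97.8% masked. Within the gene, the first intron held a peak of 642 bp in females and 493 bp in males, 64.3% and 65.9% masked, at percentiles of 83.2 to 90.3 and 89.6 to 99.6. The start-site row was lower than all of these. Its level was 2.63, 2.59 and 2.43 in the female age, 3-week and 8-week tables (percentiles 46.3, 74.2 and 22.7) and 2.12, 1.96 and 2.61 in the male ones (percentiles 52.3, 39.1 and 32.5).

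**Figure D5:**
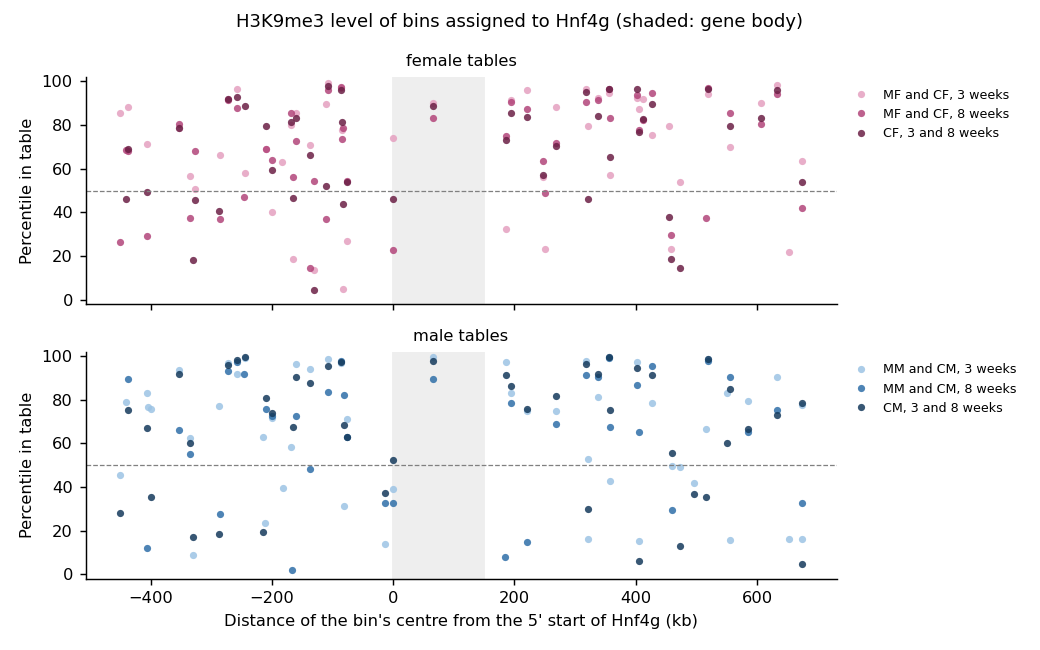
Each dot is a bin assigned to Hnf4g, placed by distance of its centre from the 5′ start (kb) and by percentile of its level in its table, for the 3 female and 3 male tables, with the gene body shaded. Dots spread over more than 1 Mb, the start-site bins lie at percentiles of 22.7 to 74.2, and the intron bins at 83.2 to 99.6.

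For the full-length bins, the order of the genes by median percentile was Foxa1, Hnf4g (74.1), Cebpa (65.0), Foxa2 (53.1), Hnf4a, Cebpb (41.3), Onecut1 (40.0) and Foxa3 (38.3) in females. In males it was Hnf4g (80.7), Foxa1, Cebpa (54.1), Foxa2 (40.5), Hnf4a, Cebpb (28.5), Foxa3 (22.5) and Onecut1 (19.4). This order depended on the choice of full-length bins, which was made after seeing the data. Over all rows, whatever their length, the medians were 78.0 for Foxa1, 76.1 for Hnf4g, 46.5 for Cebpa, 42.9 for Onecut1, 39.1 for Cebpb, 35.4 for Foxa2, 30.7 for Hnf4a and 20.6 for Foxa3 in females. In males they were 75.9 for Foxa1, 75.2 for Hnf4g, 59.5 for Onecut1, 57.7 for Foxa2, 38.9 for Cebpa, 30.9 for Hnf4a, 21.1 for Foxa3 and 7.39 for Cebpb. Foxa1 and Hnf4g were the highest pair both ways in both sexes, while Onecut1 moved from the lowest place in males to the third. The ranges of neighbouring genes in the order by full-length bins overlapped in both sexes, and the female and male libraries were separate while the 3 tables within a sex were not.

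The CpG-island criteria were met by 11 of 92 female peaks (12.0%) and 12 of 105 male peaks (11.4%) of the 8 genes. Without Hnf4g, a subset chosen after seeing the data, they were met by 7 of 39 female peaks (17.9%) and 9 of 54 male peaks (16.7%), against 6.71% and 6.63% of all peaks. Other liver-enriched regulators (10.1% and 8.02%) and regulators of other lineages (9.17% and 9.58%) were also above all peaks. The promoter bins of these 7 genes had a median GC of 62.3% in females and 59.4% in males and a CpG observed over expected of 0.623 and 0.526. All promoter bins of the tables had 56.7% and 56.3% GC and ratios of 0.365 and 0.349. Promoter rows made up 25.0% to 33.3% of the rows of the 7 genes, and 19.7% to 22.9% of all rows in the same tables. With Hnf4g included the direction turned, at 12.9% of the 233 female and 13.5% of the 251 male rows of the 8 genes. CpG-island peaks belonged to Hnf4g (4 female and 3 male), Foxa1 (3 in each sex), Foxa2 (2 female and 3 male), Onecut1 (1 in each), Cebpb (1 female), Cebpa (1 male) and Foxa3 (1 male). The last 3 are not differences between the sexes in sequence. The female Foxa3 start peak, given to Sympk, also met the criteria (61.7% GC, ratio 0.652). The female Cebpa and male Cebpb start peaks, of 6887 and 8280 bp, were longer than those of the other sex and had ratios of 0.547 and 0.514.

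The peaks of the 2 sexes, which were called and merged separately, fell at 111 distinct places, and 71 of them were marked in both sexes, 16 in females alone and 24 in males alone. Foxa1 (5 of 5) and Cebpb (2 of 2 merged places) were shared in full. Hnf4g shared 41 of 57 places, Cebpa 6 of 11, Hnf4a 8 of 16, Foxa2 5 of 10, Foxa3 2 of 4 and Onecut1 2 of 6. For the other 7 genes, 82.1% of female peaks were met by any male peak and 70.4% of male peaks by any female peak, where 77.1% and 72.8% of all peaks were. For Hnf4g the shares were 83.0% and 86.3%. The places count peaks assigned to these genes, and the male Foxa3 start peak, for example, overlaps the female peak given to Sympk. A place found in 1 sex alone was not tested as a difference between the sexes.

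The genes that these factors work with and on were described in the same way. Of 18 other liver-enriched regulators, all had a row, and the 5′ start lay in a peak in 13 in both sexes. The most rows belonged to Prox1 (148), Cux2 (145) and Nr5a2 (131), and the median percentile of the group was 47.1 in females and 48.4 in males. Of 18 hepatocyte products, which are targets of the factors, 2 female and 3 male starts lay in a peak, which is below the 48.1% and 49.2% of all genes. Alb (albumin), Apoa2, Fgb and G6pc had no row in any table, and Apob (75), Cps1 (71) and Pck1 (45) had the most. Of 20 regulators of other lineages, 18 female and 17 male starts lay in a peak. Tbx5 had 201 rows and Pax7 146, and the group had median percentiles of 54.1 and 58.7. None of these shares was tested.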

How the data were processed

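H3K9me3 ChIP-seq was measured in mouse liver, 4 libraries in each of 8 groups. Reads were aligned by the authors to mm10/GRCm38, and broad peaks were called with MACS2. They kept peaks found in several replicates, merged them within each sex, cut long peaks into bins of about 500 bp and counted reads with featureCounts. The 6 deposited tables give, per bin, the authors' average log2 CPM over the 8 libraries of 2 groups, with coordinates and an annotation. That average is the only measurement used. Each table also holds the authors' fold change, p-value and FDR of its comparison, which were neither used nor printed. The number of other columns of values per sample was 0. The study's methods give an approximate read number shared by all libraries, the exact depth of each is not given in the sources used here, and no interval, SD or test between groups could be made. The rule by which 1 bin per peak was kept, and any subtraction of input, are not given in the sources used here.

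Rows were selected by gene symbol. All 8 genes, each gene's nearest and highest row per table and its rows within 3 kb of a start were considered for naming, and from each other list the 3 genes with the most rows. 1 of these genes and 1 promoter sequence are not reported here. The genes and lists were chosen with earlier results of these data known. Percentiles were taken within each table. GC, CpG observed over expected and soft-masked share came from the GRCm38.p6 sequence, and gene starts from GENCODE M21, a release other than the M25 the authors used on the same build. Bins past a chromosome end numbered 0. Python 3.11.15 with numpy 2.4.6 and pandas 2.3.3 was used, and the overlap, percentile and sequence functions were tested on simulated data. Alternatives changed the membership rule, the promoter window, the scale, the background of the percentiles and the overlap between sexes.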

Additional observations from a re-analysis of the deposited data

How the results depend on the processing

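The count of 484 rows depended on how membership was defined. It was 111 as merged places, 238 for bins within 10 kb of a gene body by coordinates, 202 for rows within 50 kb of the start site and 205 without Hnf4g, an alternative chosen after seeing the data. The 64 promoter rows became 34 within 1 kb of a start. Dividing the level by bin length raised the median level of the 8 genes to 3.95, 3.69 and 3.99 log2 CPM per kb in the female age, 3-week and 8-week tables and to 3.61, 3.40 and 4.21 in the male ones, from 2.76, 2.52, 2.80, 2.20, 2.05 and 2.90, because bins are shorter than 1 kb. Without Hnf4g the median percentile fell to 38.3, 40.1 and 48.4 in the female age, 3-week and 8-week tables and to 37.4, 38.4 and 52.3 in the male ones, from 64.1, 66.0, 68.2, 61.7, 52.8 and 68.0, so that its place above the table median rested on Hnf4g in 5 of the 6 tables. Medians were otherwise compared with the spread of single rows, a wide measure that says little about their stability. Of 92 female and 105 male peaks, 76 and 81 were met in the other sex. With an overlap of at least 50% of the shorter peak these counts were 72 and 74. When kept bins were compared, 86 of 115 female and 89 of 135 male bins were met, a smaller share than for peaks. Leaving out replicates was not possible without values per library. No paired analysis was possible because the tables hold no values per library. Depth limits could not be computed from averages.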
